A study of Mus musculus with 4 samples.

Results

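The cells described carry the label neural cells of the Tbx1 lineage, which the markers below bear out for only part of them. They are the barcodes of both E9.5 libraries with at least 2 Sox2 UMIs and at most 2 Epcam UMIs. They also have no Foxa1 or Pax1 UMI, at most 2 Arg1 UMIs and at most 2 UMIs of Cdh5 and Pecam1 together. A UMI (unique molecular identifier) stands for one captured RNA molecule. This rule found 97 of 11719 barcodes at E9.5. There were 68 members among 5453 barcodes of the control (Ctrl) library and 29 among 6266 barcodes of the conditional knockout (cKO) library. The share of members was 1.25% in Ctrl (exact 95% interval, 0.970 to 1.58%) and 0.463% in cKO (0.310 to 0.664%).

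Swiss Webster mouse embryos gave the cells, whose Tbx1Cre lineage was read out by droplet 3′ RNA-seq. Ctrl embryos were Tbx1Cre/+ and cKO embryos were Tbx1Cre/flox, and all of them also carried Rosa26-GFPflox/+, a reporter that Cre switches on for good. Tbx1Cre is a knock-in that removes 1 working copy of Tbx1, so Ctrl embryos were heterozygous for Tbx1, and cells were sorted as GFP-positive and DAPI-negative. A GFP-positive cell had Cre activity itself or in an ancestor, so it need not express Tbx1 when sampled. Tissue came from the pharyngeal apparatus and heart at E9.5, with the back of the embryo still attached according to the study, and from the upper body at E8.5. Embryos were pooled and 1 library was made for each of the 4 groups. No value therefore has a replicate, no test between genotypes was possible, and every interval below covers counting error only. A difference between genotypes cannot be told apart from a difference between the pools, dissections or library preparations.

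Neural progenitors line the neural tube and are held in a dividing state by SoxB1 factors (Sox1, Sox2 and Sox3) and by Notch signalling, whose nuclear targets include Hes5. Daughter cells that leave this state pass through a neuroblast stage marked by proneural factors such as Neurog1, Neurog2 and Neurod1, and then switch on neuronal genes such as Tubb3 and Elavl3. Cranial sensory neurons have another source, the placodes, which are patches of thickened ectoderm that express Eya1. Position along the neural tube is recorded by Hox genes from the hindbrain to the tail and by Otx2, Six3 and En1 ahead of it.

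The members held 1265857 UMIs in Ctrl and 584137 in cKO, with a median of 16775.5 UMIs per cell in Ctrl (range, 6058 to 56357) and 18312 in cKO (5750 to 40416). Levels are UMIs per 1000000 UMIs of the same group of cells (UPM), over the 27514 genes listed in every library. The cKO E9.5 gene table listed 31053 genes and the other 3 libraries listed 27998, so the libraries were not counted against one annotation. One Ctrl member had a barcode that also occurred in the cKO library, and no barcode was a member in both. Tbx1, the deleted gene, was at 105 UPM in Ctrl and 135 UPM in cKO over all E9.5 barcodes outside the gate, and at 87.7 and 119.8 UPM at E8.5. In members it was at 21.3 UPM in Ctrl and 87.3 UPM in cKO at E9.5, and at 23.4 and 48.5 UPM at E8.5. The 3′ counts are not resolved by exon, so these levels do not show whether the floxed part of Tbx1 was gone.

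The label was first set against its markers. The submitters named the source of all libraries as pharyngeal mesoderm, which is not a neural tissue. Sox2, a SoxB1 factor of neural and other progenitors, chose the cells and had a median of 3 UMIs per member in Ctrl (range, 2 to 17) and 2 in cKO (2 to 15). Sox3, its close relative, was found in 11 of 68 Ctrl members and 7 of 29 cKO members, and Elavl3, an RNA-binding protein of young neurons, in the same numbers of cells. Tubb3, a neuronal tubulin, was found in 23 of 68 Ctrl members (33.8%; 22.8 to 46.3%) and 10 of 29 cKO members (34.5%; 17.9 to 54.3%). In barcodes with at least 10 UMIs of mesenchyme markers and no Sox2, Tubb3 was found in 5.98% of 3531 in Ctrl and 7.94% of 4964 in cKO, and Sox3 in 0.510% and 0.463%. The members therefore held more cells with neural markers than the mesenchyme in both libraries, but most members had no Tubb3 UMI and most had no Elavl3 UMI. The 28 listed neuronal genes, some of them used outside neurons, were together at 0 in 2 members of each library. Only 4 of 68 Ctrl members and 2 of 29 cKO members had at least 2 UMIs of both Tubb3 and Elavl3. No UMI of Hes5, Fabp7, Sox1, Pax6 or Pax3 was found in 11 of 68 Ctrl members and 13 of 29 cKO members. These genes did not bear out the label in those cells.

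At a common depth of 10000 UMIs per cell, which left 64 Ctrl and 23 cKO members, Tubb3 was found in 28.1% of Ctrl members (17.6 to 40.8%) and 21.7% of cKO members (7.46 to 43.7%). The thinned mesenchyme barcodes had Tubb3 in 3.80% and 5.10%. Sox3 was found in 12.5% (5.55 to 23.2%) and 13.0% (2.78 to 33.6%). Hes5 was found in 57.8% of Ctrl members (44.8 to 70.1%) and 17.4% of cKO members (4.95 to 38.8%), against 0.526% and 0.572% of the thinned mesenchyme barcodes, whose median depth was 16465 and 16100 UMIs before thinning. The Hes5 intervals of the genotypes did not overlap at this depth, whereas those of Sox3 and Tubb3 did. The members left out at this depth included Hes5-bearing cKO cells of 5750, 7646 and 8351 UMIs and a Hes5-bearing Ctrl cell of 9348 UMIs. The cut therefore also changed which cells were compared. Without thinning, and with the shallower members kept, Hes5 was found in 67.6% of Ctrl members (55.2 to 78.5%) and 31.0% of cKO members (15.3 to 50.8%). The Hes5 intervals overlapped at 4000 UMIs per cell (29.4 to 53.8% and 7.99 to 39.7%). They also overlapped when at least 2 Hes5 UMIs were asked for (27.1 to 52.1% and 1.07 to 28.0%).

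The genes that stood highest in members over all other barcodes of the same library, in both libraries at once, were genes of the neural tube. Msx3, a homeobox gene of the dorsal neural tube, was at 125 UPM (106 to 146) in Ctrl members and 56.5 UPM (38.9 to 79.3) in cKO members, and at 0.430 and 0.634 UPM in the other barcodes. Pou3f2, a POU factor of neural progenitors, was at 52.1 and 37.7 UPM in members and at 0.355 and 0.519 UPM elsewhere. Nkx6-2, a homeobox gene of the ventral neural tube, was at 79.8 and 44.5 UPM against 0.495 and 0.923 UPM. Hes5 was at 186 UPM (163 to 211) and 71.9 UPM (51.8 to 97.2) against 1.88 and 1.55 UPM. Pax6, a paired-box factor of neural and eye progenitors, was at 62.4 UPM (49.4 to 77.8) and 59.9 UPM (41.7 to 83.3) against 2.51 and 2.88 UPM. Fabp7, a fatty-acid binding protein of radial progenitors, was at 225 UPM (199.8 to 253) and 58.2 UPM (40.3 to 81.3) against 2.71 and 5.59 UPM. Since Sox2 chose the cells within these same libraries, these levels describe the members and test nothing. Crabp2, which binds retinoic acid in the cytoplasm, was at 1260.8 and 861 UPM in members and at 242 and 182 UPM elsewhere.

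**Figure D1:**
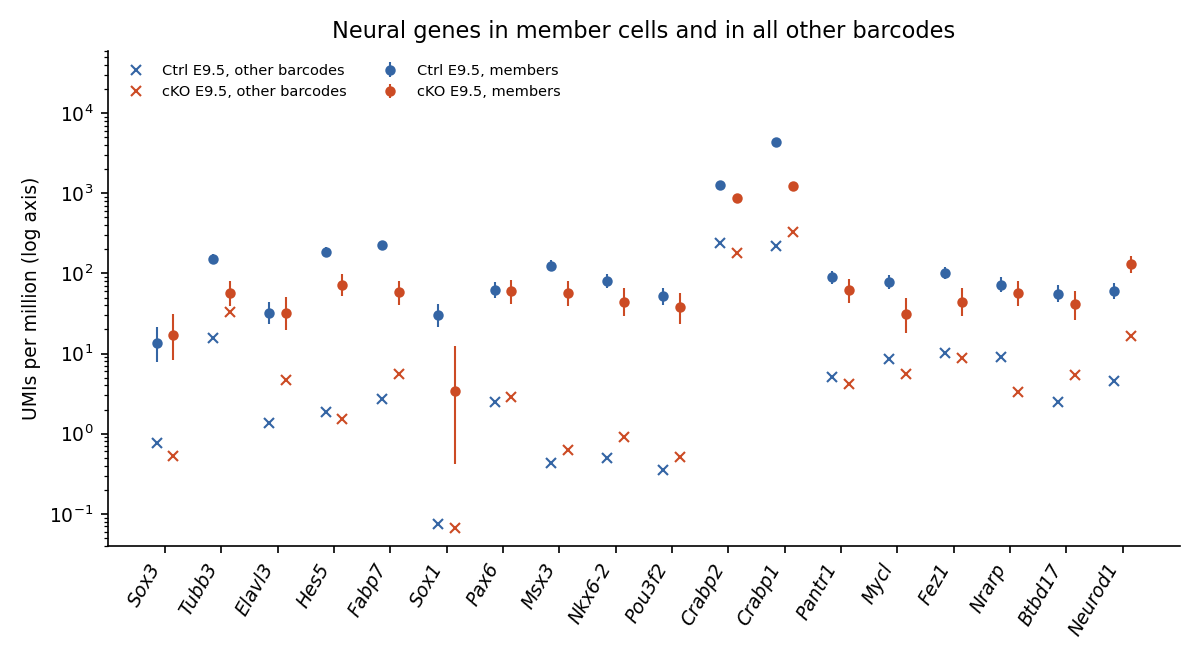
Level of 18 genes in UPM (log axis) in the Ctrl and cKO E9.5 libraries. Points are member cells with exact 95% Poisson intervals, and crosses are all other barcodes. Crabp1, drawn among the neural genes, was also found in most mesenchyme barcodes without Sox2. Every point lies above the cross of the same library, from Msx3 (125 against 0.430 in Ctrl) to Tubb3 (56.5 against 33.2 in cKO).

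Epithelial barcodes were those with at least 3 Epcam UMIs that otherwise passed the same limits on endoderm, Arg1 and endothelial genes. They served as a second group to compare with, and no Sox2 limit was set for them. There were 308 of them in Ctrl and 87 in cKO. They held little of the neural tube set, with Hes5 at 2.43 and 6.14 UPM, Fabp7 at 0.347 and 2.46 UPM, Msx3 at 0 in both, and Sox1 at 0 in both. Of the placode genes only Eya1 is given here, at 66.5 and 57.1 UPM in these barcodes against 14.2 and 36.0 UPM in members. Neurog2, a proneural factor of dorsal neural tube and epibranchial placode neuroblasts, was at 66.7 and 153 UPM there and at 38.7 and 3.42 UPM in members.

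Hes5 and Lfng belong to the Notch pathway, Hes5 as a target and Lfng as the fringe enzyme that tunes Notch receptors, and their promoters are shown because both genes were higher in members than elsewhere and are counted in the lists below. The 250 bases before each start site are printed 5′ to 3′ from RefSeq, build GRCm38.p6, plus strand, with capitals on GTGGGAA or its reverse complement TTCCCAC, the letters searched as a core of the sites that the Notch partner Rbpj is known to bind.
Hes5, chr4:154960673-154960922: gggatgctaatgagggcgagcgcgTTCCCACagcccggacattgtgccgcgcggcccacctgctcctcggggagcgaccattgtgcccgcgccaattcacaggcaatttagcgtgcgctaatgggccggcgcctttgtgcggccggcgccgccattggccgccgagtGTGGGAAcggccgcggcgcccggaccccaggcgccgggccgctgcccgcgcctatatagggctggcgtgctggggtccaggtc
Lfng, chr5:140607091-140607340: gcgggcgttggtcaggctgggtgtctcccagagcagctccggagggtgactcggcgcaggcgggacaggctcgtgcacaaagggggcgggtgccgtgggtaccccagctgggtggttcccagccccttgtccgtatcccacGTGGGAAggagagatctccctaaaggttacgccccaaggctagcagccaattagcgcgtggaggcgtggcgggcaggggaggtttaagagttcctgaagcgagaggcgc
The Hes5 stretch held the letters at 83 bases before the start site and, on the other strand, at 226 bases before it. The Lfng stretch held them once, at 109 bases. Over the full windows of 300 bases, 6.38% of 32851 promoters held either form. Among the 15 genes that led the members 13 had a promoter in the table and 2 of these, Hes5 and Fez1, held it, and of 16 Notch pathway genes 3 did. These matches are letters in a window and say nothing of binding in these cells.

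The limits of the rule removed most Sox2-bearing barcodes. In Ctrl, 388 barcodes had at least 2 Sox2 UMIs, of which Epcam removed 306, Foxa1 or Pax1 215, Arg1 61 and the endothelial pair 2, with overlaps. In cKO the numbers were 112, of which Epcam removed 72, Foxa1 or Pax1 60 and Arg1 25. Members were 17.5% of the Sox2-bearing barcodes in Ctrl and 25.9% in cKO. Just outside the rule, barcodes with 1 Sox2 UMI that passed the other limits numbered 85 in Ctrl and 119 in cKO, and their Hes5 level was 3.93 and 8.27 UPM. Members with exactly 2 Sox2 UMIs had Hes5 at 179.7 UPM in Ctrl (18 cells) and 33.998 UPM in cKO (17 cells), and members with 3 or more had 188 UPM (50 cells) and 129.8 UPM (12 cells). The mesenchyme markers ran the other way, from 1077 and 1315 UPM at 1 Sox2 UMI to 539 and 853 UPM at 2 and 172 and 424 UPM at 3 or more. Epcam was 0 in 62 of 68 Ctrl members and 25 of 29 cKO members, and the 6 Ctrl members with 1 or 2 Epcam UMIs had Krt8, an epithelial keratin, at 316 UPM against 10.2 UPM in the rest.

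The members were a mixture, and the mixture differed between genotypes. Each cell was described by 3 sums chosen after its values had been seen: at least 3 UMIs of Hes5, Fabp7, Sox1, Pax6 and Pax3 together (progenitor genes), at least 2 UMIs of Neurog1 and Neurod1 (neuroblast genes), and at least 10 UMIs of 15 mesenchyme markers. Progenitor genes passed in 52 of 68 Ctrl members (76.5%; 64.6 to 85.9%) and 12 of 29 cKO members (41.4%; 23.5 to 61.1%). Mesenchyme markers passed in 9 of 68 Ctrl members (13.2%; 6.23 to 23.6%) and 14 of 29 cKO members (48.3%; 29.4 to 67.5%). Neuroblast genes passed in 5 of 68 Ctrl members (7.35%; 2.43 to 16.3%) and 5 of 29 cKO members (17.2%; 5.85 to 35.8%). The intervals of the genotypes did not overlap for progenitor or mesenchyme genes, and overlapped for neuroblast genes.

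Progenitor and mesenchyme genes were mostly held by different cells. Both passed in 3 Ctrl and 2 cKO members, progenitor genes alone in 47 Ctrl and 10 cKO members, mesenchyme markers without progenitor genes in 6 and 12, and none of the 3 sums in 8 and 2. Near the limits, 6 Ctrl members and no cKO member lay at 8 to 11 mesenchyme UMIs, and 11 Ctrl and 2 cKO members lay at 3 or 4 progenitor UMIs. Of the 14 mesenchyme-bearing cKO members, 13 had a UMI of Prrx1 or Twist1, both factors of head and limb mesenchyme, 13 had Tbx1, and 10 had exactly 2 Sox2 UMIs. Their median depth was 28200.5 UMIs, against 14564 UMIs in the 10 cKO cells with progenitor genes alone. All 5 cKO members and both Ctrl members above 2 times the median depth of their library were mesenchyme-bearing. Doublets were not called, and the part of doublets or of free RNA in these cells was not tested.

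**Figure D2:**
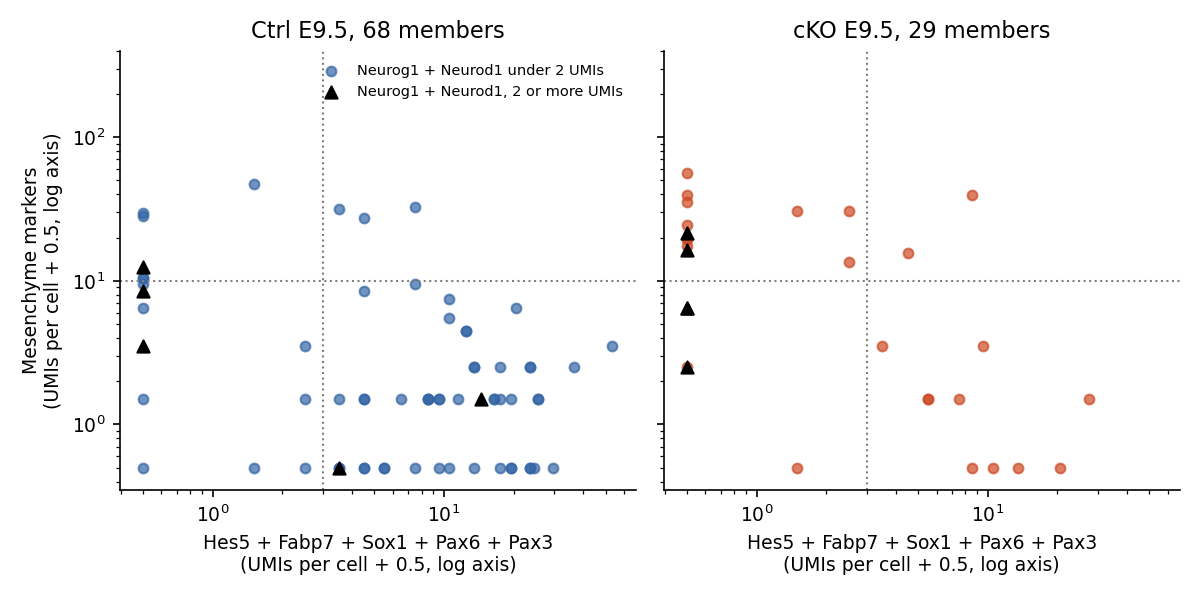
Each point is a member cell of the Ctrl (68 cells) or cKO (29 cells) E9.5 library, placed by its UMIs of 5 progenitor genes and of the mesenchyme markers (0.5 added, log axes), with triangles for cells with at least 2 UMIs of Neurog1 and Neurod1 and dotted lines at 3 and 10 UMIs. Ctrl cells gather at the lower right, where 47 have progenitor genes alone, while 14 of 29 cKO cells lie above the upper line.

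Levels were then compared between genotypes over all members, with this mixture in view. In 7131 genes with at least 20 UMIs over both libraries the median log2 ratio of cKO to Ctrl was -0.27 (-0.23 for the same genes outside the gate), and a gene was called higher or lower where its log2 ratio lay at least 1 above or below that median. By this rule of size, which is not a test, 368 genes were higher (5.16% of those tested) and 605 were lower (8.48%).

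Of the progenitor genes a minority was called lower in cKO members. All 16 listed progenitor genes were tested, none was called higher and 3 were lower, with a median log2 ratio of -0.69 against -0.27 over all genes. Hes5 had a log2 ratio of -1.37 (-1.88 to -0.89), which came to -0.27 in members with under 10 mesenchyme UMIs and to -0.026 when the rule was applied to barcodes thinned to 4000 UMIs. Fabp7 had a log2 ratio of -1.95 (-2.51 to -1.44) and Sox1 of -3.13 (-6.23 to -1.18). Sox1, the SoxB1 gene most restricted to the neural plate and tube, was at 30.02 UPM (21.2 to 41.2) in Ctrl, in 21 cells, and at 3.42 UPM (0.415 to 12.4) in cKO, in 2 cells. Nes, which encodes the progenitor filament nestin, was at 116 and 49.6 UPM and just missed the call at -1.23. Sox11, a factor shared by progenitors and many embryonic tissues, was at 480 UPM in Ctrl and 498 UPM in cKO, and Pax6 had a ratio of -0.06 (-0.68 to 0.53). Beside these ratios, the mesenchyme markers together were at 262 UPM in Ctrl members (0 to 17.2 UMIs per 10000 in a cell, median 0.735) and 683 UPM in cKO members (0 to 22.7, median 3.22), and of the 15 only Postn was at 0 in Ctrl and none in cKO.

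Of the genes that divide the neural tube from dorsal to ventral, most tested ones were lower. Of 21 listed, 13 were tested, none was higher and 7 were lower, with a median log2 ratio of -1.43. Msx2, a homeobox gene of the roof plate and of surface ectoderm, was at 60.8 UPM in Ctrl (20 cells) and 3.42 UPM in cKO (2 cells). Olig3, a factor of dorsal progenitors, was at 56.1 UPM (17 cells) and 10.3 UPM (2 cells). Wnt1, the dorsal midline ligand, was at 40.3 UPM (11 cells) and 10.3 UPM, all of it in 1 cell. Of the ventral genes, Nkx6-1 was at 52.1 UPM (14 cells) and 10.3 UPM (3 cells) and Nkx6-2, which was not called, at 79.8 UPM (21 cells) and 44.5 UPM (3 cells). Dbx1, of the intermediate domain, was at 21.3 and 20.5 UPM.

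Most members held RNA of Hox genes, which are used from the hindbrain backwards. At least 1 UMI of a listed Hox gene was found in 63 of 68 Ctrl members and 21 of 29 cKO members. These genes were not particular to members. In mesenchyme barcodes without Sox2, Hoxa2 was found in 28.9% in Ctrl and 31.9% in cKO, against 76.5% and 51.7% of members. Hoxb2 was found in 23.3% and 34.9% of these barcodes, against 77.9% and 58.6% of members. Some mesenchyme-bearing cKO members also held Hox UMIs, so a Hox UMI alone does not mark a neural cell. Of 25 listed, only Hoxa2, Hoxa3, Hoxb1, Hoxb2 and Hoxb3 reached 20 UMIs, and the median log2 ratio of these 5 was -0.95, with none higher and 2 lower. Hoxb2 was at 216 UPM (192 to 244) in Ctrl and 49.6 UPM (33.2 to 71.3) in cKO. Hoxb1, which marks the fourth rhombomere, was at 60.8 UPM in 14 cells and 13.7 UPM in 3 cells. Hoxa2 was at 95.6 and 49.6 UPM and was not called. Egr2, of alternate hindbrain segments, was at 33.2 UPM in 15 Ctrl cells and at 3.42 UPM in 1 cKO cell. Hoxb4, whose expression starts further back, was too low to be tested and is named because of its values: it had 1 UMI in 1 Ctrl member and 17 UMIs in 8 of 29 cKO members. Hoxa5 had 5 UMIs in cKO members and Hoxb5 had 3, and neither was seen in Ctrl. The part of the dissection level in these Hox values was not tested.

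Of the Notch pathway genes, 15 of 20 were tested, 2 were higher and 6 were lower, with a median log2 ratio of -0.66. Lfng was at 60.8 UPM (48.0 to 76.0) in 37 Ctrl cells and 22.3 UPM (11.8 to 38.1) in 5 cKO cells. Dll1 and Dll3, ligands of newborn neuronal precursors, were at 19.0 and 36.3 UPM in Ctrl and 5.14 and 13.7 UPM in cKO. Nrarp, a feedback target, was at 72.7 and 56.5 UPM and was not called. Hes1, a target used in many tissues, was higher at 54.5 and 92.4 UPM, and so was Rbpj, the nuclear partner of Notch, at 29.2 and 49.6 UPM. Their log2 ratios of 0.76 and 0.76 came to 0.40 and 0.63 without the top cKO cell, below the call. Outside the gate, Lfng had a log2 ratio of -1.46, about the same as in the members.

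Of the retinoid genes, Crabp1, which binds retinoic acid in the cytoplasm, was at 4379.6 UPM in Ctrl members and 1249.7 UPM in cKO members, a log2 ratio of -1.81 (-1.92 to -1.70), and was found in 64 of 68 and 27 of 29 cells. Crabp1 was not particular to members, as it was found in 73.2% of mesenchyme barcodes without Sox2 in Ctrl and 81.7% in cKO. With the rule applied to thinned barcodes its ratio was -0.13. Cyp26b1, which degrades retinoic acid, was at 96.4 UPM in 31 cells and 20.5 UPM in 3 cells. Of 6 retinoid genes tested these 2 were called, both lower, while the other 4, Crabp2, Rara and Rdh10 among them, were not. The secreted Wnt modulators Sfrp1 and Sfrp2 were also lower, at 722 and 279 UPM in Ctrl against 179.8 and 85.6 UPM in cKO. In the Wnt and BMP list 4 of 13 tested genes were lower and 1 was higher. In the FGF list 2 of 8 were lower and 1 was higher. The lowest was Fgfr3, a receptor of neural progenitors, at 27.6 UPM in 21 Ctrl cells and 1.71 UPM in 1 cKO cell. None of 6 Hedgehog genes was called, and Ptch1, its receptor and target, was at 38.7 and 39.4 UPM.

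Proneural and neuroblast genes split. Of 21 listed, 17 were tested, 5 were higher and 6 lower, with a median log2 ratio of -0.33. Neurog2 was at 38.7 UPM in 6 Ctrl cells, with 63.3% of its UMIs in 1 of them, and at 3.42 UPM in 2 cKO cells. Neurog1 was at 20.5 UPM (13.4 to 30.1) in 5 cells and 68.5 UPM (48.9 to 93.2) in 7 cells. Neurod1 was at 60.04 and 130.1 UPM in 6 and 5 cells, and 1 cell held 64.5% of its UMIs in Ctrl and 60.5% in cKO. Without the top cKO cell its log2 ratio went from 1.12 to -0.15. Atoh1 and Pou4f1, of dorsal and sensory neurons, were at 15.8 and 19.7 UPM in Ctrl and were not seen in cKO members, and 1 Ctrl cell held 76.0% of the Pou4f1 UMIs.

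Of the neuronal genes, about as many were called lower as were not. Of 28 listed, 13 were tested, none was higher and 7 were lower, with a median log2 ratio of -1.30. Tubb3 was at 152 UPM (131.7 to 176) in 23 Ctrl cells and 56.5 UPM (38.9 to 79.3) in 10 cKO cells, a log2 ratio of -1.43 that came to -0.93, and was no longer called, without the top Ctrl cell. Nefl and Nefm, neurofilament subunits, were at 35.5 and 50.6 UPM in Ctrl and at 1.71 and 17.1 UPM in cKO, and single Ctrl cells held 51.1% and 87.5% of them. Without its top Ctrl cell Nefm turned from -1.56 to 1.41. Elavl3 was at 32.4 UPM (23.2 to 43.9) and 32.5 UPM (19.6 to 50.8). The neuronal ratios therefore rested on a handful of cells in either library.

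Of 30 otic and placode genes, 7 were tested, 3 were higher and 1, Lfng, was lower, with a median log2 ratio of 0.67. Eya1, a cofactor of placode development, was at 14.2 UPM in 13 Ctrl cells and 36.0 UPM in 9 cKO cells. It is also active in pharyngeal mesoderm and mesenchyme. Of defining otic genes, Oc90 had no UMI, Pax2 had 1 UMI in each library, and Pax8 had 1 UMI in Ctrl and 8 UMIs in 2 cKO cells.

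Mesenchyme markers were higher in cKO members. Of 15 listed, 10 were tested, 8 were higher and none lower, with a median log2 ratio of 1.33. Prrx1 was at 11.8 UPM (6.63 to 19.5) in 8 Ctrl cells and 70.2 UPM (50.4 to 95.2) in 13 cKO cells, and Twist1 at 22.9 UPM in 9 and 66.8 UPM in 13. Both stayed below the other barcodes of the same library, where Prrx1 was at 70.5 and 146 UPM. Tbx1 followed them, at 21.3 UPM (14.1 to 31.0) in 11 Ctrl cells and 87.3 UPM (65.0 to 115) in 15 cKO cells. It was found in 5 of 9 mesenchyme-bearing and 6 of 59 other Ctrl members, and in 13 of 14 and 2 of 15 cKO members.

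Markers of other cell types differed in how far the members held them. The rule itself limited Foxa1, Pax1, Epcam, Cdh5 and Pecam1, so low endoderm, epithelial and endothelial levels were partly set in advance. Blood markers were at 0 in 64 of 68 Ctrl and 28 of 29 cKO members, and endoderm markers at 0 in 64 and 26. Muscle and heart markers together were at 124 and 89.0 UPM in members against 643 and 374 UPM in the other barcodes, with Myod1 at 0 in both libraries, and were at 0 in 27 of 68 Ctrl and 14 of 29 cKO members. Epithelial genes together were at 222 and 200.3 UPM against 489 and 213 UPM. Endothelial markers together were at 45.8 and 111 UPM against 299.6 and 108 UPM, of which Egfl7, also used outside vessels, gave 41.1 and 56.5 UPM, and Erg was at 0 in both. Of 12 neural crest markers 7 were tested, 4 were higher and 2 lower, with a median log2 ratio of 0.77. They were together at 4482 and 1371 UPM, of which Crabp1, shared with the retinoid list, gave 4379.6 and 1249.7 UPM. The crest factor Foxd3 was seen in 1 Ctrl cell and Sox10 in 2 cells of each library. Of 32 cell cycle genes, all were tested, 2 were lower and none was higher, with a median log2 ratio of -0.51.

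**Figure D3:**
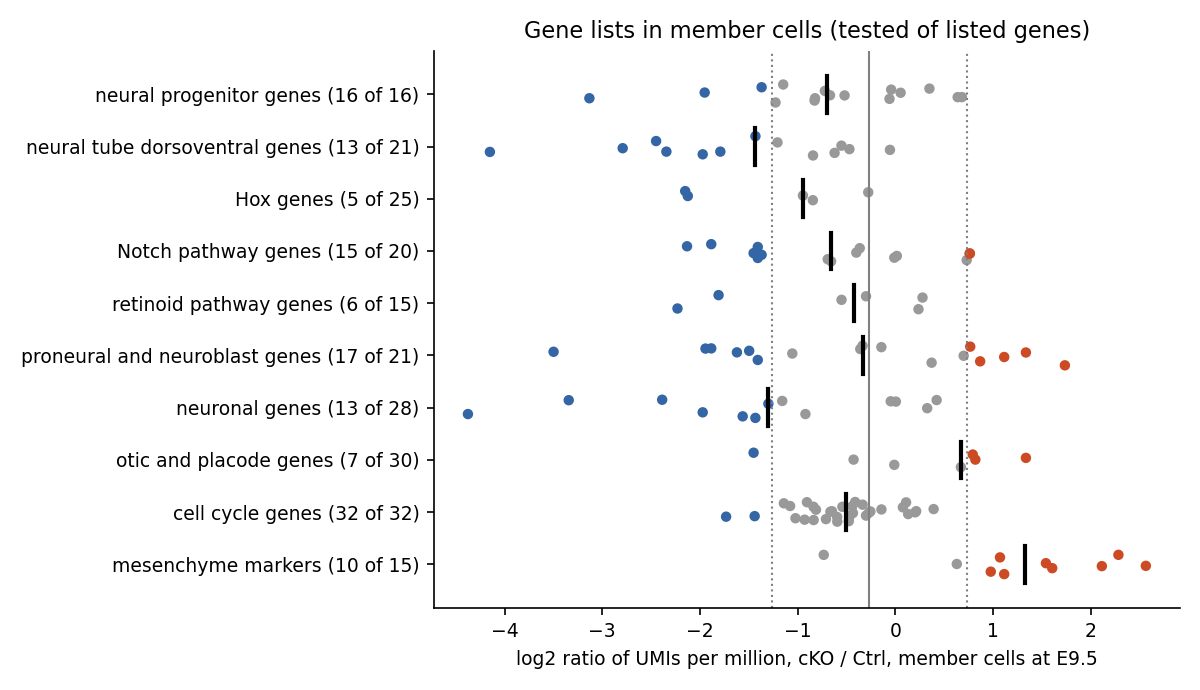
Each point is the log2 ratio of UPM in cKO over Ctrl member cells for a tested gene of 10 lists, coloured red when at least 1 above and blue when at least 1 below the median of all tested genes (grey line at -0.27, dotted lines 1 away), with a black bar at the list median. Medians run from -1.43 for dorsoventral genes to 1.33 for mesenchyme markers.

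The comparison was repeated in the 47 Ctrl and 10 cKO members with progenitor genes and without mesenchyme or neuroblast genes, which held 836963 and 131038 UMIs. Of 5313 genes tested there, 321 were higher (6.04%) and 644 lower (12.1%), around a median log2 ratio of -0.22. The median log2 ratio of the progenitor list, which holds the genes that chose these cells, was -0.12, of the dorsoventral list -0.41 and of the 5 Hox genes 0.07, and these 3 lay nearer to the median of all genes than over all members. Of the 16 progenitor genes 4 were higher and 2 lower. The FGF median (3 genes tested) was -1.10, the retinoid median (4 genes) -0.63 and the proneural median (3 genes) -0.65, each below the median of all genes. Fewer genes of these 3 lists were tested here, so their medians here and over all members cover different genes. Cells with neuroblast genes had been left out, so the proneural median is partly set by that choice. The Notch median (9 genes) was 0.24, above it, and the neuronal median (3 genes) was -0.06. Hoxa2 was at 109 UPM in 38 of 47 Ctrl cells and 114 UPM in 7 of 10 cKO cells. Msx3 was at 159 and 145.0 UPM, Nes at 141 and 114 UPM, Msx1 at 169.7 and 176 UPM and Sfrp2 at 382 and 305 UPM. The intervals of the log2 ratios of these 5 genes all held the median. Hes5, one of the genes that chose these cells, was at 275 and 305 UPM.

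Other genes were called in these cells as well. Epha7, an ephrin receptor with banded expression in the hindbrain, was at 117 UPM in 31 Ctrl cells and 15.3 UPM in 1 cKO cell, a log2 ratio of -2.94 (-6.01 to -1.05). Sparc, a secreted matrix protein, was at 264 UPM in 43 cells and 53.4 UPM in 6 cells (-2.31; -3.64 to -1.24). Cnih2, which escorts glutamate receptors, was at 106 UPM in 34 cells and 7.63 UPM in 1 cell. Nkx2-9, a homeobox gene of the ventral neural tube, was at 180.4 UPM in 9 cells and 38.2 UPM in 2 cells. Nr2f1, an orphan receptor of neural and other progenitors, was at 251 and 107 UPM. Pax6, itself among the genes that chose the cells, was at 86.0 and 206 UPM. Crabp1 remained lower at 4804 and 2694 UPM, with a log2 ratio of -0.83 (-0.996 to -0.68) that was no longer called. Mcm2, a replication licensing factor, was at 146 and 15.3 UPM, and it was also lower outside the gate, at 124 and 63.9 UPM. With 10 cKO cells, a single cell carried up to the whole level of a gene.

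Single genes were picked by size, among genes of at least 30 UPM whose interval lay wholly past 1 from the median and that stayed past 1 after their ratio outside the gate was subtracted, and 25 higher and 20 lower genes met this. The 12 lowest were Tonsl, Car4, Nefl, Msx2, Irx2, Nkx2-9, Ly6h, Neurog2, Egr2, Cnih2, Epha7 and Sparc. Irx2, an Iroquois patterning gene, was at 56.9 UPM in 33 Ctrl cells and 3.42 UPM in 2 cKO cells. Car4, a membrane carbonic anhydrase, was at 38.7 UPM in 15 cells and 1.71 UPM in 1 cell. Ly6h, a surface protein of the nervous system, was at 44.2 UPM in 28 cells and 3.42 UPM in 2 cells. The 12 highest were Gal, Ints6, Wfdc3, Snhg9, Crym, Prrx1, Col3a1, Pdgfrb, Tcf21, Tbx1, Mdfi and Snai1. Gal, which encodes the neuropeptide galanin, was at 3.95 and 113 UPM, with 97.0% of its cKO UMIs in 1 cell, and Wfdc3 was at 0 and 41.1 UPM with 91.7% in 1 cell. Col3a1, Pdgfrb, Tcf21 and Snai1 are genes of mesenchyme, and Col3a1 was at 25.3 UPM in 15 Ctrl cells and 123 UPM in 14 cKO cells.

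Tonsl, Ints6 and Snhg9 shifted in the whole cKO library. Tonsl was at 90.8 UPM in Ctrl members and 1.71 UPM in cKO members, and at 88.5 and 4.93 UPM in the other barcodes. At E8.5, where both libraries used the same gene table, it was at 54.7 UPM in Ctrl and 73.7 UPM in cKO members. Ints6 was at 1.58 and 32.5 UPM in E9.5 members and at 2.97 and 23.5 UPM outside the gate. The part of the different gene table in these genes was not tested.

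The same limits were applied to the E8.5 libraries, whose cells the rule did not use. They found 22 of 1434 barcodes in Ctrl (1.53%; 0.964 to 2.31%) and 19 of 1090 in cKO (1.74%; 1.05 to 2.71%). Pax6 was at 215 UPM (177 to 259) in 14 of 22 Ctrl cells and 147 UPM (117 to 183) in 15 of 19 cKO cells, against 4.77 and 4.65 UPM outside the limits, and 1 Ctrl cell held 45 of its 110 UMIs. Sox1 was found in 6 and 8 of these cells, Sox3 in 2 and 6 and Hes5 in 7 and 6, so these genes were missing from most of them at this depth. Pax3 was found in 3 and 11, Tubb3 in 9 and 7, and Stmn2, a neuronal gene, in 12 and 11. Tbx1 was found in 8 and 9. Genes of position differed between the days. Otx2, of forebrain and midbrain, was found in 10 of 22 and 7 of 19 cells at E8.5, and in 0 of 68 and 0 of 29 cells at E9.5. A count of 0 at a floor of 3 cells allows shares of cells with an Otx2 UMI of up to 4.41% and 10.3%, and cells without a UMI may still express the gene. Six3, of the anterior forebrain, was found in 7 and 5 cells at E8.5 and in none at E9.5. Hoxa2, in contrast, was found in 3 of 22 and 6 of 19 cells at E8.5 and in 52 of 68 and 15 of 29 at E9.5.

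Other genes differed between the days. Hes5 was at 54.7 UPM in Ctrl and 36.0 UPM in cKO at E8.5, against 186 and 71.9 UPM at E9.5. Fabp7 was at 9.76 and 12.6 UPM at E8.5, against 225 and 58.2 UPM. Crabp1 was at 998 UPM in Ctrl and 733 UPM in cKO at E8.5, against 4379.6 and 1249.7 UPM. Twist1 was found in 7 of 22 Ctrl and 10 of 19 cKO cells at E8.5. Hoxb4 was found in 4 and 6 cells at E8.5, so the later Ctrl members, with 1 of 68, had the lowest share of the 4 libraries. Thinned to 10000 UMIs, Otx2 was still found in 7 of 21 and 4 of 19 cells at E8.5 and in none at E9.5. Median depth was 17509.5 and 28298 UMIs at E8.5, and the days differed in dissection as well as age.

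**Figure D4:**
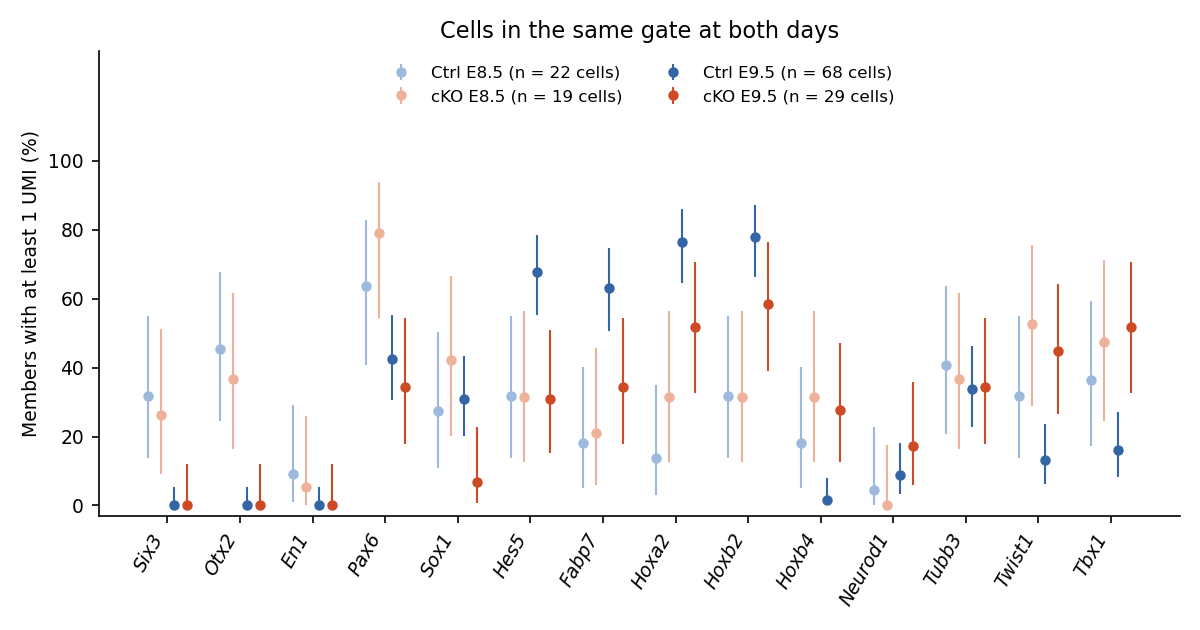
Share of members with at least 1 UMI of 14 genes, with exact 95% intervals, in cells passing the same limits in the Ctrl and cKO libraries at E8.5 (22 and 19 cells) and E9.5 (68 and 29 cells). Six3 and Otx2 are seen at E8.5 but in 0 of 97 cells at E9.5, and Hoxa2 reaches 52 of 68 cells in Ctrl at E9.5.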

How the data were processed

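Droplet 3′ RNA-seq libraries (10x Chromium, v2 chemistry) of sorted GFP-positive, DAPI-negative cells were available for 4 groups, with 1 library each. As deposited by the authors, each file holds unnormalized UMI counts of cell barcodes, aligned to mm10. The submitters' processing notes name Cell Ranger 3.1.0. The cKO E9.5 table lists 31053 genes and the others 27998, and the 27514 gene identifiers shared by all were used. They held 99.4 to 99.9% of the UMIs of each library. The 2 E9.5 libraries shared 55 barcodes.

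Counts of the cells of a group were summed and divided by their total (UMIs per 1000000, UPM). Intervals of levels are exact Poisson intervals, those of shares are Clopper-Pearson intervals, and those of log2 ratios are exact conditional binomial intervals, all at 95%. They cover counting error only. Cells are not replicates, and no test, standard error or adjusted p was computed. Genes with at least 20 UMIs in the members of both libraries together were compared. Where 1 library was at 0, the ratio is a bound against a floor of 3 UMIs. The scripts were tested on simulated data with known ratios. No doublet caller was run.

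The members, gene lists and subsets were chosen with earlier results of these data known. Named genes were the lineage markers and Tbx1, the 12 highest and 12 lowest log2 ratios that met the limits given with them, the up to 4 most abundant and 4 most changed genes of each list, and the 15 genes that most marked the members in both libraries. Other genes are named to say which members of a list were or were not called, and were chosen after their values were seen. Alternatives changed the limits of the rule, the depth, the scaling (TMM, edgeR 4.0.16, and means per cell), the subtraction of the ratio outside the gate and the UMI minimum. Python 3.11.15, scipy 1.17.1 and R 4.3.3 were used. Some genes are not reported here.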

Additional observations from a re-analysis of the deposited data

Results flagged for a closer look

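The share of member cells was lower in cKO at E9.5, while the E8.5 interval covered both directions. The log2 ratio of this share, cKO over Ctrl, was -1.43 (-2.11 to -0.78) at E9.5 and 0.18 (-0.78 to 1.14) at E8.5. The rule used raw UMIs, and the E8.5 libraries had a median of 17223 UMIs per barcode in Ctrl and 23883 in cKO. The part of depth in these shares was not tested. The difference between the days was not tested, since each group is 1 library.

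Barcodes with at least 2 UMIs of both Tubb3 and Elavl3 also lay outside the limits that chose the members. They were 0.989% of the cKO E9.5 barcodes (62 cells) and 0.330% of the Ctrl E9.5 barcodes (18 cells), a log2 ratio of 1.58 (0.81 to 2.43). Of these, 62 and 17 had Isl1, a factor of sensory and motor neurons. Sox2 was at 0 in 57 of all 64 such cKO barcodes. At E8.5 there were 0 in Ctrl and 1 in cKO.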

How the results depend on the processing

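No paired analysis was possible because each group is 1 library and the labels give no replicate numbers. Leaving out a replicate was not possible for the same reason. Named genes have a value only under settings where they kept 20 UMIs, and the alternatives by mesenchyme or progenitor genes were chosen after seeing the data. The member share of 1.25% in Ctrl and 0.463% in cKO was 2.81% and 2.36% with at least 1 Sox2 UMI, 0.917% and 0.192% with at least 3, 0.880% and 0.192% with the rule applied to barcodes thinned to 4000 UMIs, and 0.954% and 0.192% with at least 3 progenitor-gene UMIs. It was 17.5% and 25.9% of the Sox2-bearing barcodes, so the order of the genotypes depends on the denominator, and 0.239% in cKO with under 10 mesenchyme UMIs. Subtracting the ratio outside the gate left 238 genes higher and 365 lower, and no UMI minimum gave 908 and 1129. Without a minimum more genes were compared, and no share is given for either setting. These counts therefore cannot be set against those of the main comparison. The Hox median was -0.31 with at least 3 Sox2 UMIs, -0.25 with thinned barcodes and -0.19 with progenitor genes. The proneural median was -1.24 with at least 3 Sox2 UMIs, -1.46 with Epcam at 0, -1.06 with thinned barcodes, -0.96 after subtraction of the outside ratio and -1.70 with progenitor genes. The placode median was -0.79 with thinned barcodes. The medians of progenitor and neuronal genes stayed within the median of their genes' interval bounds under each alternative listed here, at -0.69 to -0.13 and -1.79 to -0.30. In cells with progenitor genes alone the neuronal median was -0.06.

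Some single genes changed side of the median. With the rule applied to barcodes thinned to 4000 UMIs, 20 results stayed the same, 16 moved without reversing and 10 reversed. With at least 3 progenitor-gene UMIs these numbers were 24, 28 and 2. With TMM scaling 69 results stayed the same and 2 moved. With thinned barcodes the log2 ratio was 1.92 for Car4, -0.13 for Crabp1, 0.11 for Dll3, -0.55 for Eya1, -0.026 for Hes5, 1.87 for Hoxb1, -0.21 for Hoxb2, -1.92 for Neurod1, 0.053 for Nkx6-1 and 0.43 for Sfrp2. With at least 3 Sox2 UMIs Neurod1 was at -2.07, and with Epcam at 0 Neurod1 was at -0.91. With at least 1 Sox2 UMI Neurog2 was at 1.04. After subtraction of the ratio outside the gate Lfng was at 0.0059 and Neurod1 at -0.76. Hes5 was at -0.27 with under 10 mesenchyme UMIs and at -0.11 with progenitor genes, where Neurog1 was at -2.07. The cause of these changes was not tested. With 29 cKO cells, a gene under about 20 UMIs in all could not be compared.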
